A study of Mus musculus with 4 samples.

Results

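Histone mRNAs were followed through an RNA immunoprecipitation in which the captured RNA was measured on arrays. The starting material was corticohippocampal lysate of male mice of the inbred strain C57BL/6, aged 8 weeks. It was kept for 3 h with beads coated with CPEB3 IgG or with control IgG. CPEB3, a cytoplasmic polyadenylation element binding protein, is found in neurons and acts on the translation of its target mRNAs. The precipitated RNA was amplified from 0.2 ug per sample, labelled with Cy3 and hybridised to 1-colour Agilent arrays, 2 for CPEB3 IgG (replicates 1 and 2) and 2 for control IgG (replicates 1 and 2). The labels list no genetic change, no drug and no input array, and the origin of the replicates, from the same or from different animals or lysates, is not in them. P-values therefore reflect the spread between these samples alone, and that spread may be technical. The members are the probes, controls aside, whose gene name on the array begins with Hist1h, Hist2h, Hist3h or Hist4h, together with H2afv, H2afx, the H2afy genes, H2afz, H3f3a, H3f3b, H1f0 and H1fx. This rule, which uses names and no measured value, gave 59 genes of 34962 gene names and 74 probes of 55681. The 49 Hist genes are here called replication-dependent and the other 10 variant, after the naming scheme of the array. Class membership rests on the name alone, also for Hist3h2bb-ps, which is named as a pseudogene. Whether each Hist gene is expressed with replication was not checked.

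Replication-dependent histone genes lie in clusters, are transcribed mainly in S phase, and give short intronless mRNAs that classically end in a conserved stem-loop in place of a poly(A) tail. The stem-loop is bound by SLBP, the stem-loop binding protein, and directs processing, translation and decay of the message. Some of these genes can also give longer, polyadenylated mRNAs, and differentiated cells are known to hold such forms. Variant histone genes are scattered single genes, often with introns and long 3′ untranslated regions, and their mRNAs are polyadenylated in dividing and non-dividing cells alike. CPEB proteins were described through U-rich elements such as UUUUAU in the 3′ untranslated regions of polyadenylated mRNAs.

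The array design placed 6 of the 74 probes across the histone stem-loop. These windows of 30 bases are shown because they hold the stem-loop at which a processed histone mRNA ends, and the 16 bases of the stem-loop are in capitals. Longer transcripts that read through the stem-loop hold it too. The Hist2h2aa2 window covers bases 1 to 30 of its probe, so most of that probe lies past the stem-loop. In the other probes the window covers bases 31 to 60. The windows are written 5′ to 3′ in the mRNA sense, as DNA letters.
Hist1h3a: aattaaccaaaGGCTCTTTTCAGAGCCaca
Hist1h3g: cactttaaaGGCTCTTCTTAGAGCCaccca
Hist1h3i: ataacaaaaGGCTCTTTTCAGAGCCccctc
Hist1h4m: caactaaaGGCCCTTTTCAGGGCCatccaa
Hist2h2aa2: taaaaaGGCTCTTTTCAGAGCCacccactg
Hist2h2bb: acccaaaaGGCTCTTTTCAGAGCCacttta
The probes of 60 bases that hold these windows lie, in mm9 and by the coordinates in the files, at chr13:23853756-23853815 (minus strand) for Hist1h3a, chr13:23627719-23627778 (plus) for Hist1h3g, chr13:21874784-21874843 (minus) for Hist1h3i, chr13:21903960-21904019 (plus) for Hist1h4m, chr3:96043669-96043728 (minus) for Hist2h2aa2 and chr3:96074056-96074115 (plus) for Hist2h2bb. For Hist1h3a, Hist1h3i, Hist2h2aa2 and Hist2h2bb, the longest stretch shared with any other member probe was 21 or 22 bases. Searched on both strands by the stem-loop's consensus, 0 fitted probes of other genes held it. Exon and UTR borders of the probes were not annotated here.

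Levels are log2 processed signals with the array's own 75th percentile set to 0, and differences are the CPEB3 IgG mean minus the control IgG mean. Such a difference compares shares of the RNA that each antibody brought down. With no input array, it cannot be set against the content of the lysate. In bulk lysate, fewer cells of a type and less RNA per cell cannot be told apart. The 75th percentile was 507 and 353 signal units with CPEB3 IgG, against 443 and 425 with control IgG. Of the 74 member probes, 68 and 66 were well above background with CPEB3 IgG, and 69 on each control IgG array. Neuronal marker mRNAs were well above background at 14 of 14 probes on every array, while of 5 probes for mRNAs of other organs 3 to 4 were. All arrays were on 1 slide, with the groups in different positions of it, so the antibody and the place on the slide cannot be told apart.

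The replication-dependent genes were mostly lower in the CPEB3 precipitate. Of 45 that could be fitted, 31 were called lower, 2 were called higher and 12 did not pass (limma, Benjamini-Hochberg adjusted p under 0.05 over all genes). Over all 27685 fitted genes, 20.2% were called lower and 19.2% higher. With 2 arrays per group, the groups did not overlap in 20178 of the 27685 genes and in 40 of the 45. Groups that lie apart therefore say little by themselves about a single gene. The median log2 difference of the 45 genes was -1.21, against -0.14 over all genes. On the arrays themselves, the median level of the 45 genes was 0.26 and -0.13 with CPEB3 IgG, against 1.34 and 1.39 with control IgG. The other 4 replication-dependent genes, Hist1h1d, Hist1h2ae, Hist1h2bq and Hist1h3g, were too dim on most arrays to be fitted.

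All 5 protein families of the nucleosome and linker had lower members. H4 genes, for the core histone that pairs with H3, were lower in 7 of 9 with a median of -1.95. H3 genes were lower in 5 of 7 (median -1.49) and genes of the linker histone H1 in 4 of 5 (median -1.39). H2A genes were lower in 9 of 13 (median -0.99) and H2B genes, which gave the smallest median, in 6 of 11 (median -0.70). The H4 and H2B families each held 1 of the 2 genes called higher.

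**Figure D1:**
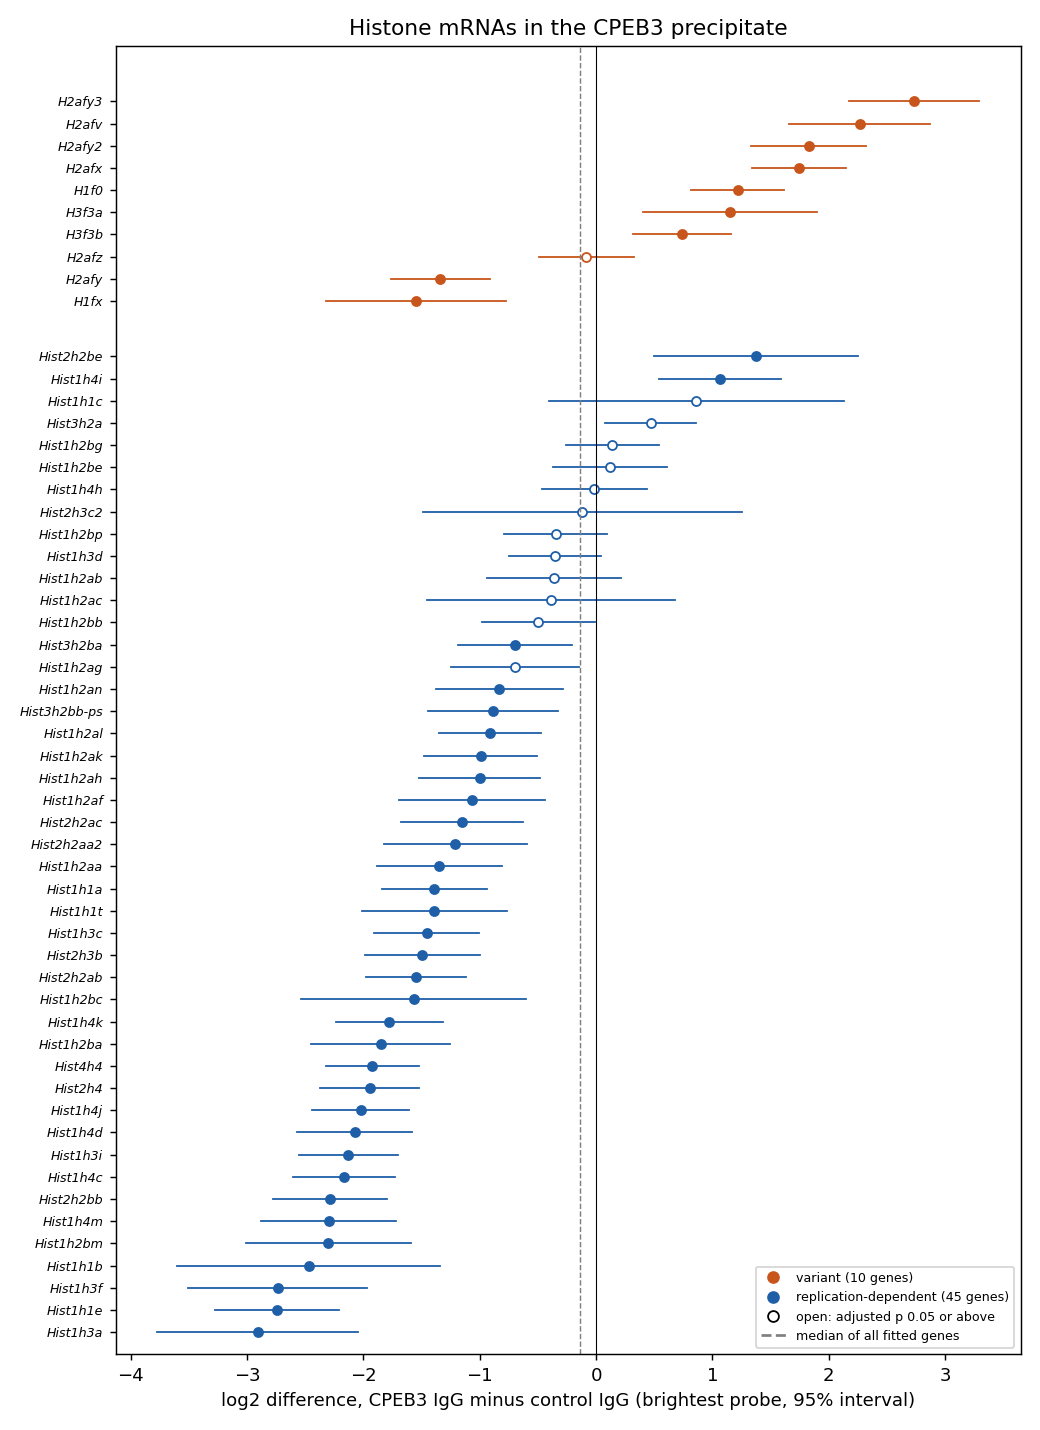
The log2 difference (CPEB3 IgG minus control IgG, x axis) of each of the 55 fitted histone genes at its brightest probe, with the 95% interval of the fit and filled points for adjusted p under 0.05. Of the variant genes in orange 7 of 10 were called higher, and of the replication-dependent genes in blue 31 of 45 were called lower, while the dashed median of all genes is at -0.14.

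Scaling decides how many of these calls stand. Median scaling gave 22 replication-dependent genes called lower and no scaling 24, against 3137 and 3632 of all 27685 genes. Quantile scaling gave 30 and cyclic loess scaling 31, against 4661 and 4846 of all genes. With the arrays aligned on spike-in RNA, whose log2 signal was 13.08 and 13.44 with CPEB3 IgG against 14.00 and 14.02 with control IgG, the median of all genes lay at 0.58. There 7 replication-dependent genes were called lower and 30 of the 45 had a negative difference, and their median was -0.49. The 7 genes, all among the 31, were Hist1h1b, Hist1h1e, Hist1h2bm, Hist1h3a, Hist1h3f, Hist1h4m and Hist2h2bb. Of these, Hist1h3a passed the filter through control IgG alone, as given below, so it had to differ. On each array such scaling shifts all genes alike, which leaves the distance between the class and all genes as it was. It moves the zero line, and because the shift differs between replicates it also changes their spread. H3f3b rose from 0.74 to 1.45 under spike-in scaling, and yet its call was lost (limma adjusted p = 0.0563). Over all 27685 genes 691 were called lower and 5053 higher with spike-in scaling, against 5599 and 5309 as reported. With CPEB3 IgG replicate 1 left out 20 genes were called lower, and with CPEB3 IgG replicate 2 left out 19, against 24 without control IgG replicate 1 and 29 without control IgG replicate 2. Of the 29 genes, 28 were among the 31, and the genes called in the other 3 settings were all among them.

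Hist1h1e, which encodes linker histone H1.4, had levels of 0.64 and 0.24 with CPEB3 IgG, against 3.22 and 3.14 with control IgG. Both CPEB3 IgG arrays were far below both control arrays, a 6.69-fold lower signal (log2 difference -2.74 ± 0.20 SE, limma adjusted p = 0.00386). Its probe (chr13:23713707-23713766, minus strand, mm9) closes with the stop codon of the reading frame, in capitals here because it shows that a coding end was measured.
Hist1h1e: ccaaagaaaaccgcagccaagaaaaagTAA
Hist1h1b, for the linker histone H1.5 of dividing cells, had levels of -3.91 and -2.85 with CPEB3 IgG, against -0.67 and -1.15 with control IgG. The groups did not overlap, although the CPEB3 IgG arrays lay about 1 log2 unit apart (difference -2.47 ± 0.42 SE, adjusted p = 0.0149).

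Among the core histones, Hist1h2bm, an H2B gene, had levels of 1.23 and 0.58 with CPEB3 IgG, against 3.26 and 3.15 with control IgG. The groups were well apart, and the signal was 4.93-fold lower (-2.30 ± 0.26 SE, limma adjusted p = 0.00631). Hist1h4c, an H4 gene measured near the start of its reading frame, had levels of 0.26 and 0.07 with CPEB3 IgG, against 2.38 and 2.28 with control IgG. Replicates lay close together in both groups, and the signal was 4.49-fold lower (-2.17 ± 0.16 SE, adjusted p = 0.00386). Hist1h3f, an H3 gene, had levels of -3.83 and -4.56 with CPEB3 IgG, against -1.45 in both control IgG samples (-2.74 ± 0.29 SE, adjusted p = 0.00524). It was well above background on 1 of the 2 CPEB3 IgG arrays, so its fold rests partly on a dim signal. At the same threshold, the calls of Hist1h1e, Hist1h1b, Hist1h2bm, Hist1h3f and Hist1h4c were kept in each of the settings tried that could fit them, with the exception of Hist1h4c, whose adjusted p was 0.057 with spike-in scaling (-1.45).

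The 5 fitted probes across the stem-loop, those shown at the start, were all lower. Hist2h2bb, an H2B gene, had levels of -0.29 and -0.51 with CPEB3 IgG, against 2.01 and 1.77 with control IgG. Its signal was 4.88-fold lower (-2.29 ± 0.18 SE, adjusted p = 0.00396), with the groups far apart. Hist1h4m, an H4 gene, had levels of -2.92 and -3.11 with CPEB3 IgG, against -0.50 and -0.93 with control IgG (-2.30 ± 0.22 SE, adjusted p = 0.00447). Hist1h3i, an H3 gene, had levels of -2.56 and -2.42 with CPEB3 IgG, against -0.30 and -0.42 with control IgG (-2.13 ± 0.16 SE, adjusted p = 0.00386). In both genes the replicates of a group differed by less than 0.5 log2 units and the groups did not overlap. Hist2h2aa2, an H2A gene, had levels of 2.06 and 1.28 with CPEB3 IgG, against 4.16 and 3.55 with control IgG at its stem-loop probe (-2.19 ± 0.37 SE, adjusted p = 0.0166 over all probes). Without CPEB3 IgG replicate 2 this last call was lost (-1.80, adjusted p = 0.0619).

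Hist1h3a, an H3 gene, was not well above background on either CPEB3 IgG array and well above it on both control IgG arrays. Its mean level was -6.82 ± 0.30 with CPEB3 IgG, against -3.91 ± 0.52 with control IgG (SD, n = 2 each). The measured signal allows only a bound of at least 2.66-fold lower, and the bound was not tested. The limma adjusted p of 0.00581 belongs to the difference of -2.91 between the means, which rests on dim signal. Being high in control IgG alone is what let Hist1h3a pass the filter, so it had to differ. Without it the lower calls were 4 of 4 stem-loop probes, 4 of 6 H3 genes and 30 of 44 replication-dependent genes (median -1.18). With normexp background correction its call was lost (-0.50, adjusted p = 0.0623). Over the 5 stem-loop probes the median difference was -2.29, or -2.19 with Hist1h3a at its bound, against -0.19 over all fitted probes. Hist1h3g was not well above background with CPEB3 IgG and was so on 1 control IgG array. Under spike-in scaling 3 of the 5 stem-loop probes were called lower, against 2.38% of all fitted probes. Hist1h3a was again among the genes called lower there, and the same limit of the filter holds for its call.

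Probes of the replication-dependent genes differed with their place on the transcript. The probes were sorted, after their values had been seen, into those with the stem-loop, those that start within 500 bases of the transcript's first base (700 for the longer H1 mRNAs), and those that start further on, where the long extended transcripts reach. The Hist2h2aa2 stem-loop probe starts at base 569, past the limit of 500, and lies mostly beyond the stem-loop. It was kept with the stem-loop probes and is not among the distant ones. No test was made of this split. Over single probes, the fit called 18.9% of 40616 lower and 15.8% higher. In 28949 of these probes the groups did not overlap. Of the 35 probes near the start 28 were called lower and 1 higher, with a median of -1.39. Of the 12 fitted probes further on 1 was called lower and 1 higher, with a median of -0.01, close to the -0.19 of all probes. The other 4 of the 16 distant probes were too dim to be fitted.

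Without CPEB3 IgG replicates 1 and 2 in turn, the median of the same 35 probes was -1.55 and -1.36. Without control IgG replicates 1 and 2 in turn, it was -1.38 and -1.50. The medians of the distant probes were -0.15, 0.19, 0.22 and -0.16 in the same order. Those of all fitted probes were -0.12, -0.24, -0.24 and -0.13. Fewer of the 35 probes, and of all probes, were called lower in each of these fits. With spike-in scaling the near group had 5 lower calls and a median of -0.67. The distant group had 0 lower calls, 2 higher calls and a median of 0.71. The median of all probes was 0.52 in that setting, and 2.38% of them were called lower.

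**Figure D2:**
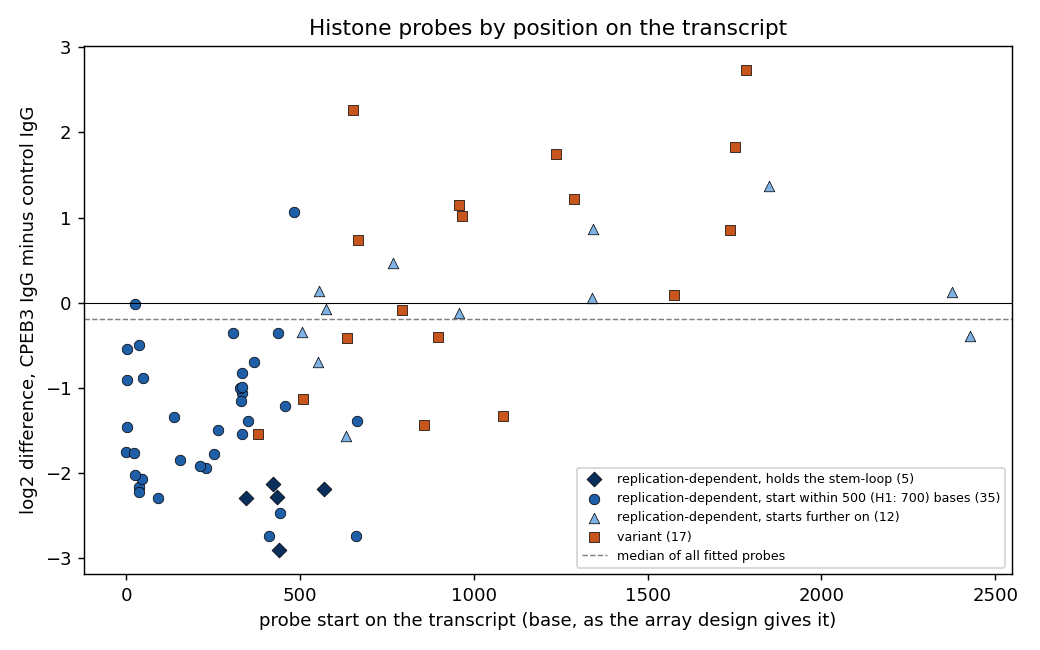
The log2 difference (CPEB3 IgG minus control IgG, y axis) of the 69 fitted histone probes against their start on the transcript in bases. The dark diamonds that hold the stem-loop lie at -2.13 or lower, the light triangles that start further on lie around 0 with a median of -0.01, and the dashed line marks the -0.19 median of all probes.

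The 2 replication-dependent genes called higher were seen at 1 probe each. Hist2h2be, an H2B gene, was measured at base 1849 (chr3:96026893-96026952, plus strand, mm9), far from the short stem-loop mRNA. Its levels were 0.15 and -0.69 with CPEB3 IgG, against -1.53 and -1.76 with control IgG (1.37 ± 0.33 SE, adjusted p = 0.034). Both CPEB3 IgG arrays were above both control arrays. The call was lost without CPEB3 IgG replicate 1 (0.96), without control IgG replicate 1 (1.48) and without control IgG replicate 2 (1.26).

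Hist1h4i, an H4 gene, has 3 probes that differ from one another. At base 23, in the coding start (chr13:22133139-22133198, minus strand, mm9), the levels were -1.31 and -1.73 with CPEB3 IgG, against 0.39 and 0.09 with control IgG. The groups did not overlap (-1.76 ± 0.23 SE, limma adjusted p = 0.0096 over all probes). At base 574 (chr13:22132591-22132650, minus strand) the levels were 0.88 and 0.18 with CPEB3 IgG, against 0.94 and 0.27 with control IgG, and the groups overlapped (-0.07, 95% interval -1.05 to 0.90). At base 483, the brightest probe and the one that stands for the gene, they were 2.19 and 2.49 with CPEB3 IgG, against 1.16 and 1.39 with control IgG (1.07 ± 0.19 SE, adjusted p = 0.0175). This probe has no coordinate in the files and shares a stretch of at least 20 bases with 1 probe of another name, so its signal may not come from Hist1h4i alone. Its call was lost without CPEB3 IgG replicate 1 (1.22), CPEB3 IgG replicate 2 (0.92) or control IgG replicate 1 (0.95). The mean of the gene's probes was -0.26 and not called.

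Hist2h2bb also differed between its probes. Its stem-loop probe was lower, as given above, while its probe at base 1340 (chr3:96082754-96082813, plus strand, mm9) had levels of -2.12 and -2.30 with CPEB3 IgG, against -2.17 and -2.36 with control IgG. The groups overlapped there, and the difference was 0.05 with a 95% interval of -0.42 to 0.53. In the genome 8638 bases separate the probe from the other one, and it shares a stretch of at least 20 bases with 1 probe of another name. Of the 5 genes with 2 probes near the start or at the stem-loop, Hist1h4i went opposite ways at bases 23 and 483, as given above, and in the other 4 both differences were negative. The Hist2h2aa2 probe at the coding end had levels of 5.07 and 4.78 with CPEB3 IgG, against 6.35 and 5.92 with control IgG (-1.21), a call lost without CPEB3 IgG replicate 1 (-1.35) or CPEB3 IgG replicate 2 (-1.07). Hist1h4k differed by -2.23 and -1.78 at bases 36 and 252, and Hist1h2ak by -1.75 and -0.99 at bases 0 and 333, all called lower. The call of Hist1h2ak at base 333 was lost without CPEB3 IgG replicate 1 (-1.09), CPEB3 IgG replicate 2 (-0.90) or control IgG replicate 1 (-0.86). Hist2h4 differed by -0.54, not called, and -1.95, called lower, at bases 3 and 230.

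**Figure D3:**
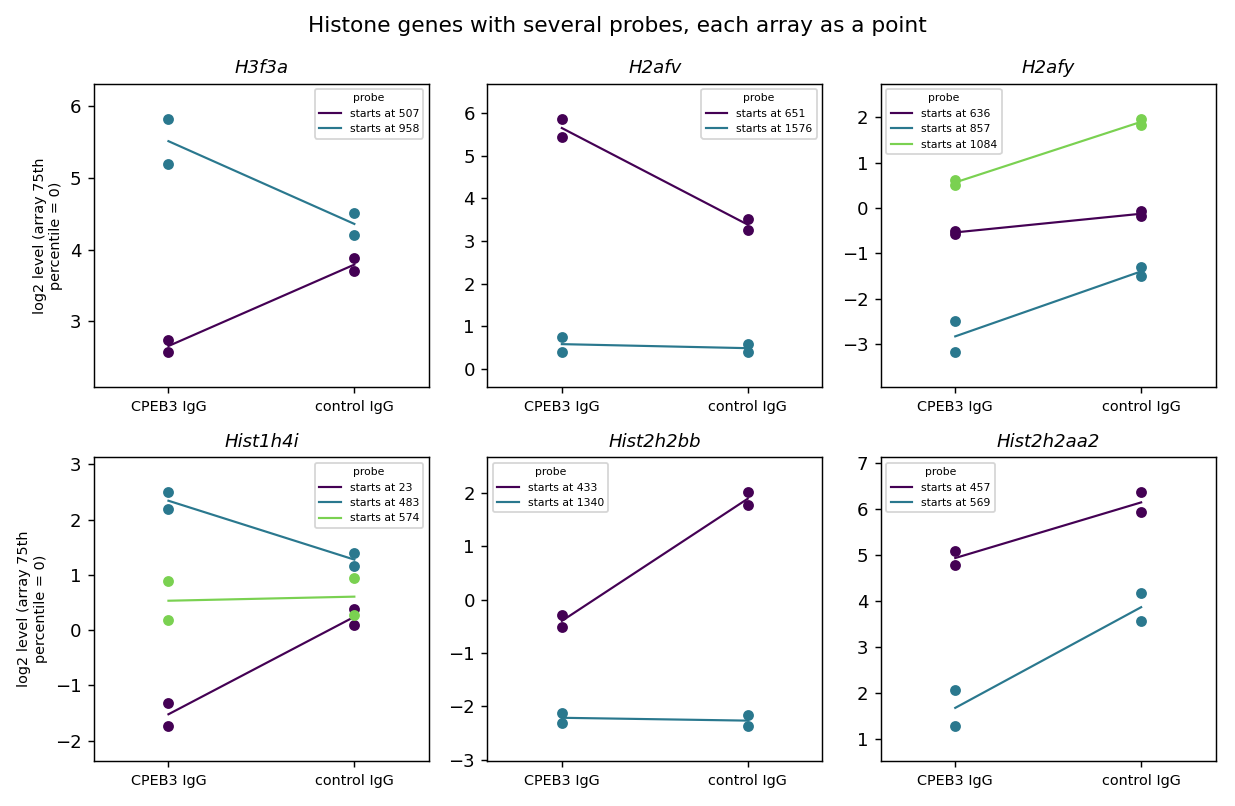
Log2 levels (y axis, array 75th percentile at 0) of each probe of 6 histone genes on each array, with CPEB3 IgG to the left of control IgG, points for arrays and lines between group means. The lines of H3f3a cross in direction (1.15 at base 958 and -1.13 at base 507), and Hist2h2bb falls at its stem-loop probe (-2.29) and stays level at base 1340 (0.05).

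Close copies limit what a probe near the coding end can assign to 1 gene. In 7 H2A genes the probe at the coding end shares 29 to 42 bases with the probe of another member. The windows of 3 of them are shown for their likeness, with the stop codon in capitals.
Hist1h2af: gagagccaccataagcccaagggaaagTAA
Hist1h2ah: aagaccgagagccaccacaaggccaagTGA
Hist2h2ac: accgagagccacaaggctaagagcaagTGA
These probes lie at chr13:23626113-23626172 (plus strand), chr13:22127035-22127094 (minus) and chr3:96024378-96024437 (minus) in mm9. Of the 7 genes 6 were called lower, and their differences lay in a narrow range of -1.21 to -0.70. The 3 windows belong to probes that share at least 40 bases with another probe of the set, and their values should be read as those of a group of H2A mRNAs. The calls of all 3 were lost without CPEB3 IgG replicate 1 (-1.19, -1.11 and -1.26 for Hist1h2af, Hist1h2ah and Hist2h2ac) and without CPEB3 IgG replicate 2 (-0.94, -0.89 and -1.05). Those of Hist1h2af (-0.83) and Hist1h2ah (-0.85) were also lost without control IgG replicate 1.

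The remaining called genes spanned -2.08 to -0.70. They were Hist1h1a, Hist1h1t, Hist1h2aa, Hist1h2ak, Hist1h2al, Hist1h2an, Hist2h2aa2, Hist2h2ab, Hist1h2ba, Hist1h2bc, Hist3h2ba, Hist3h2bb-ps, Hist1h3c, Hist2h3b, Hist1h4d, Hist1h4j, Hist1h4k, Hist2h4 and Hist4h4. Of these, Hist1h2bc, measured at base 632, was the lone distant probe called lower (-1.57), and that call was lost without CPEB3 IgG replicate 2 (-1.15) and without control IgG replicate 1 (-1.32). Hist3h2ba passed over genes (-0.70, adjusted p = 0.0438) and missed the threshold over single probes (adjusted p = 0.0516), and with spike-in scaling its difference was 0.020. Its call was also lost without any one array (-0.79 and -0.60 without CPEB3 IgG replicates 1 and 2, -0.83 and -0.56 without control IgG replicates 1 and 2). That of Hist3h2bb-ps was lost in 12 of 15 settings, among them without CPEB3 IgG replicate 1 (-0.69), CPEB3 IgG replicate 2 (-1.08), control IgG replicate 1 (-0.78) and control IgG replicate 2 (-0.995). The genes that did not pass were Hist1h1c, Hist1h2ab, Hist1h2ac, Hist1h2ag, Hist3h2a, Hist1h2bb, Hist1h2be, Hist1h2bg, Hist1h2bp, Hist1h3d, Hist2h3c2 and Hist1h4h, with differences from -0.70 to 0.86.

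Variant histone genes were mostly higher in the CPEB3 precipitate. Of the 10 genes 7 were called higher, 2 lower and 1 did not pass, with a median difference of 1.19 against -0.14 over all genes. Over all genes 19.2% were called higher and 20.2% lower, so the share of variant genes called lower was near that of all genes. H2afy2 and H2afy3, both called higher, may share a signal, as given below. On single probes, 9 of 17 were called higher and 4 lower, against 15.8% and 18.9% of all probes. With spike-in scaling 6 genes were called higher and 0 lower, against 5053 and 691 of all 27685 genes. With 1 array left out, 5 genes were called higher where that array was the first CPEB3 IgG or the second control IgG sample, and 6 where it was either of the others.

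The replacement histone H3.3 is encoded as the same protein by H3f3a and H3f3b, whose mRNAs differ outside the reading frame. H3f3b had levels of 5.86 and 5.74 with CPEB3 IgG, against 5.12 and 5.0 with control IgG, at its brightest probe (base 667). Its other probes gave 3.51 and 3.43 with CPEB3 IgG against 2.60 and 2.31 with control IgG at base 966, and -0.64 and -0.89 with CPEB3 IgG against -1.62 and -1.60 with control IgG at base 1738. All 3 were called higher, with groups that did not overlap, by 0.74 ± 0.16 (SE, adjusted p = 0.0256), 1.01 ± 0.18 and 0.85 ± 0.18 on the log2 scale. The brightest probe's call was lost without any one of the 4 arrays (0.68 without CPEB3 IgG replicate 1, 0.80 without CPEB3 IgG replicate 2, 0.80 without control IgG replicate 1 and 0.67 without control IgG replicate 2), so the direction recurred at 3 probes and the call is not a firm one. At base 1738 the call was likewise lost without any one array (0.72 and 0.97 without CPEB3 IgG replicates 1 and 2, 0.84 and 0.86 without control IgG replicates 1 and 2). At base 966 it was lost without CPEB3 IgG replicate 1 (0.97), CPEB3 IgG replicate 2 (1.06) or control IgG replicate 2 (0.87).

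H3f3a went opposite ways at its 2 probes. At base 958 (chr1:182732757-182732816, minus strand, mm9) the levels were 5.83 and 5.20 with CPEB3 IgG, against 4.51 and 4.21 with control IgG (1.15 ± 0.28 SE, adjusted p = 0.035). At base 507 (chr1:182733208-182733267, minus strand) they were 2.74 and 2.57 with CPEB3 IgG, against 3.88 and 3.70 with control IgG (-1.13 ± 0.17 SE, limma adjusted p = 0.0136 over all probes). The groups did not overlap at either probe. The probe at base 507 closes with a stop codon, in capitals, and its reading frame was not matched to that of H3.3.
H3f3a: gcacgccacatacgcggagaacgtgctTAA
It shares at least 20 bases with 2 probes of other names, and its signal may include RNA other than H3f3a. Averaged over both probes the gene's difference was 0.01. The higher call was also lost without CPEB3 IgG replicate 1 (0.84) and without control IgG replicate 2 (1.00). The lower call was lost without CPEB3 IgG replicate 1 (-1.22), CPEB3 IgG replicate 2 (-1.05) or control IgG replicate 1 (-1.04).

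H2afv and H2afz encode the nearly identical proteins H2A.Z.2 and H2A.Z.1, which mark promoters. H2afv had levels of 5.87 and 5.43 with CPEB3 IgG, against 3.51 and 3.25 with control IgG, at base 651 (chr11:6328154-6328213, minus strand, mm9), and both CPEB3 IgG arrays were far above both controls. The signal was 4.81-fold higher (2.27 ± 0.23 SE, adjusted p = 0.00489), and the call was kept in all of the settings tried. This probe is the lone variant probe that holds a cytoplasmic polyadenylation element, UUUUAU, shown in capitals with T for U.
H2afv: ttctcccttgtgTTTTATacaaaagtagaa
UUUUAU or UUUUAAU was present in 4.55% of all fitted probes in this sense and in 6.66% on the other strand, and a match in a probe says nothing about binding. At base 1576 (chr11:6327229-6327288, minus strand) the levels were 0.76 and 0.40 with CPEB3 IgG, against 0.58 and 0.39 with control IgG, with overlapping groups (0.09, 95% interval -0.45 to 0.64).

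H2afz did not pass at either probe. At base 793 its levels were 5.44 and 5.53 with CPEB3 IgG, against 5.52 and 5.62 with control IgG, and the groups overlapped (-0.08, 95% interval -0.49 to 0.32). At base 897 they were 3.86 and 3.35 with CPEB3 IgG, against 4.04 and 3.99 with control IgG (-0.41, 95% interval -1.03 to 0.21). The intervals of H2afv at base 651 and of H2afz at both probes thus lie apart, but the difference between the genes was not tested.

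H2afx encodes H2A.X, which is phosphorylated beside DNA double-strand breaks, and its mRNA can end at a stem-loop or at a poly(A) site. Its probe at base 1235 (chr9:44144033-44144092, plus strand, mm9) had levels of 3.97 and 3.85 with CPEB3 IgG, against 2.16 and 2.17 with control IgG. Replicates nearly coincided, and the signal was 3.35-fold higher (1.75 ± 0.15 SE, adjusted p = 0.00409). The call was kept in all of the settings tried.

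The macroH2A genes encode H2A variants with a large extra domain that are linked to silent chromatin. H2afy, for macroH2A1, had levels of 0.51 and 0.62 with CPEB3 IgG, against 1.97 and 1.83 with control IgG, at its brightest probe (base 1084), and -3.18 and -2.49 with CPEB3 IgG against -1.50 and -1.30 with control IgG at base 857. Both were called lower, by -1.34 ± 0.16 (SE, adjusted p = 0.00654) and -1.44 ± 0.29. At base 636 the levels were -0.50 and -0.58 with CPEB3 IgG, against -0.18 and -0.08 with control IgG, and the test was not passed (-0.41). The call at base 857 was lost without CPEB3 IgG replicate 1 (-1.09), control IgG replicate 1 (-1.54) or control IgG replicate 2 (-1.33).

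H2afy2, for macroH2A2, went the other way from H2afy. Its levels at base 1750 were 4.87 and 4.56 with CPEB3 IgG, against 2.95 and 2.83 with control IgG (1.83 ± 0.18 SE, adjusted p = 0.0049). The array lists the gene it names H2afy3 under a non-coding transcript record. At base 1782 this gene had levels of 4.83 and 4.61 with CPEB3 IgG, against 2.18 and 1.79 with control IgG. Its signal was 6.65-fold higher (2.73 ± 0.21 SE, adjusted p = 0.00386), which was the largest positive difference among the 55 fitted histone genes. The probes of H2afy2 and H2afy3 share 15 bases, which close the H2afy2 probe and open the H2afy3 probe. The signals of the 2 probes may therefore not come from separate RNAs. Both calls were kept in all of the settings tried.

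The linker variants also differed in direction. H1f0, for H1.0, the linker histone of differentiated cells, had levels of -1.69 and -1.79 with CPEB3 IgG, against -2.98 and -2.94 with control IgG at base 1288. It was 2.33-fold higher (1.22 ± 0.15 SE, adjusted p = 0.00706), and the call was kept in all of the settings tried, with log2 differences of 0.68 to 1.93. H1fx, for H1.X, had levels of -1.06 and -0.48 with CPEB3 IgG, against 0.55 and 1.01 with control IgG at base 380, and was lower (-1.55 ± 0.29 SE, adjusted p = 0.0185). The call of H1fx was lost without CPEB3 IgG replicate 1 (-1.26, adjusted p = 0.0788). It was the lone variant gene probed within 500 bases of the transcript start.

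Base composition and position moved with these differences, for the array as a whole as well as for histones. The median GC content was 50.8% in fitted replication-dependent probes and 40% in variant probes, against 43.3% in all fitted probes. It was 55% in the 35 replication-dependent probes near the transcript start, 45% in the 5 with the stem-loop and 40% in the 12 further on. Among all probes with a GC content of 50% or more 23.4% were called lower, and 24 of 29 replication-dependent probes were. Below 50%, 17.8% of all probes were called lower, and 10 of 23 replication-dependent probes were. Of the variant probes below 50% GC 9 of 14 were called higher, against 18.3% of all probes there. Below 40% GC these were 6 of 8, against 28.6% of all probes, and at 40% to 50% GC 3 of 6, against 11.6%. At 50% GC and over 0 of 3 variant probes were called higher, against 6.17% of all probes there. There 2 were called lower, and the median of the variant probes was -1.44.

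Among all fitted probes for RefSeq mRNAs, 652 of the 1812 that start within 500 bases were called lower and 7.34% higher, and of those that start further on 18.7% were called lower and 23.9% higher. Of the 36 replication-dependent probes of RefSeq mRNAs that start within 500 bases 29 were called lower, with a median of -1.52 against -0.53 for all probes there. By the same limit of 500 bases, 12 replication-dependent probes of RefSeq mRNAs start further on. Of these 4 were called lower and 1 higher, with a median of -0.37 against -0.01 for all probes there. Position and GC content were not crossed with each other. Labelling kits of the kind used here commonly copy RNA from the poly(A) tail, but the labels do not give the primer, and the part of labelling, base composition or position in these differences was not tested.

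**Figure D4:**
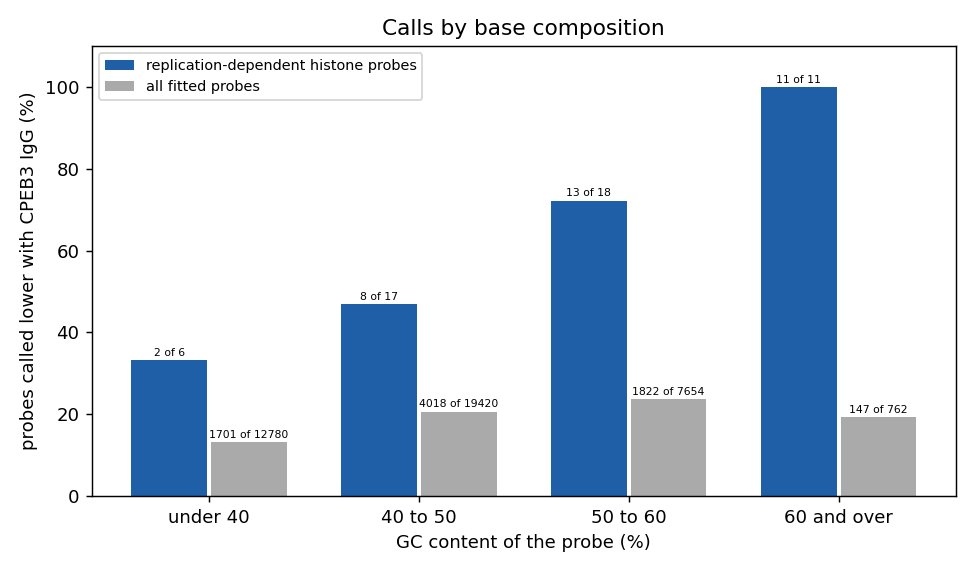
The percentage of probes called lower with CPEB3 IgG (y axis, from 0) in classes of GC content (x axis), with bars for fitted replication-dependent histone probes and for all fitted probes and the counts printed above. The histone bar is the higher of the pair in each class, from 2 of 6 below 40% GC to 11 of 11 at 60% and over.

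The mRNAs of factors that make and remove histone mRNA did not share 1 direction. Of 23 such genes 6 (26.1%) were called higher and 8 (34.8%) lower, against 19.2% and 20.2% of all genes. Slbp, the stem-loop binding protein, was lower by -1.98 ± 0.25 (SE), with a mean level of -3.82 ± 0.19 with CPEB3 IgG against -1.84 ± 0.39 with control IgG (SD, n = 2 each). Lsm11, a component of the U7 particle that acts on histone mRNA 3′ ends, was lower by -2.66, and the Sm proteins Snrpd3 and Snrpb, shared by spliceosomal particles, by -2.54 and -2.52. Cpsf2 (2.01), a subunit of the cleavage complex, Mif4gd (1.91), the SLBP-interacting translation factor SLIP1, and Casp8ap2 (1.51), FLASH of the histone locus body, were higher.

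Of 32 histone chaperones 31.3% (10 genes) were called higher and 18.8% (6 genes) lower, the second share close to the 20.2% of all genes. Npm3 (2.28), Rbbp4 (1.95) and Nasp (1.72), a chaperone of linker and H3-H4 histones, were higher. Ipo4 (-2.21), an importin that carries H3-H4, Ncl (-1.73), nucleolin, and Chaf1a (-1.21), of chromatin assembly factor 1, were lower. Of 23 fitted S phase and proliferation genes 3 (13.0%) were called higher, against 19.2% of all genes, and 8 (34.8%) lower, against 20.2%. The higher ones were Cdc6 (2.78), Mcm4 (1.77) and Ccna2 (0.72), and Mcm5 (-2.14), Gins1 (-1.49) and Mki67 (-1.26) had the largest differences among the lower ones. Of 5 fitted histone genes outside the naming rule Cenpa (0.86), the centromeric H3, was higher, and H2afj (-1.21) and H1foo (-0.76), the oocyte linker histone, were lower.

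Markers of cell types were set beside these values, for the lists as a whole. Over all genes 19.2% were called higher and 20.2% lower. Of 9 neuronal markers 1 was called higher and 0 lower, and of 5 oligodendrocyte markers 0 were called either way. Astrocyte markers gave 2 higher and 1 lower of 5, microglial markers 0 higher and 1 lower of 5, endothelial markers 1 higher and 0 lower of 4, and erythroid markers 0 higher and 1 lower of 3. Of 3 fitted markers of other organs 2 were called lower, Tnnt2 (-2.26) and Myh6 (-0.64), and 0 higher. The lists' medians ran from -0.64 for other organs and -0.35 for microglia to 0.57 for astrocytes. The part of cell types in the histone values was not tested.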

How the data were processed

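Per the file headers, the deposited processed intensity of each spot was written by Agilent Feature Extraction (version 10.5.1.1), background-subtracted and detrended within the array but not normalised between arrays. Which test the authors applied was not given in the sources used. From these intensities, log2 processed signal minus the array's 75th percentile over 55681 probes was computed, without control and outlier spots, and spots of a probe were averaged. Kept were probes flagged well above background on 2 or more of the 4 arrays (40616 probes, 27685 genes by the brightest probe). Groups came from the sample titles. limma 3.58.1 in R 4.3.3 (lmFit, eBayes, no block) was run over all genes and over all probes, adjusted by Benjamini-Hochberg and called under 0.05. Values of a gene's brightest probe come from the fit over genes, those of further probes from the fit over probes. The number of arrays limits the precision.

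The members, lists and tests were chosen with earlier results of these data known. By rule the text names all variant genes, the 2 higher and 8 lower replication-dependent genes with the largest differences, those with the stem-loop or with discordant probes, and up to 3 called genes per direction of each list. Hist1h2bc, Hist3h2ba, Hist1h2af, Hist1h2ah, Hist2h2ac, Hist3h2bb-ps, Hist1h4k, Hist1h2ak, Hist2h4 and Slbp were given values after these had been seen. A gene dim in 1 group has only a bound, the bright group's mean over a floor set on each dim array as the probe's signal or the lowest well-above-background signal, whichever was higher. Alternatives were normexp with offset 50, other scalings, other filters, the mean of probes, a variance trend, a replicate block, an adjusted p of 0.01 and leaving out each array. The fit was tested on simulated arrays.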

Additional observations from a re-analysis of the deposited data

How the results depend on the processing

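Spike-in scaling gave 7 replication-dependent genes called lower (31 as reported) with a median of -0.49, and 0 variant genes called lower (2 as reported) with a median of 1.90. It put the median of all genes at 0.58, against -0.14 as reported, and 88.0% of all calls were higher, against 48.7%. Median scaling, with a median over all genes of 0.15 and 68.4% of calls higher, gave medians of -0.92 and 1.48 for the replication-dependent and variant genes. Normexp background correction gave -0.98 and 0.93, while quantile scaling gave 1.36 and the mean of a gene's probes 1.02 for the variants. The 2 replication-dependent genes called higher became 1 without scaling, without a filter on dim probes and with the mean of probes, and 0 at an adjusted p under 0.01. At that threshold 18 replication-dependent genes and 1 variant gene were called lower. Leaving out 1 array gave 0 to 1 replication-dependent genes called higher and 19 to 29 lower, 1 to 2 variant genes called lower, and variant medians of 1.00 to 1.37. The difference of Hist3h2ba turned to 0.020 with spike-in scaling and that of Hist1h4i to -0.26 with the mean of its probes. The cause of these changes was not tested.

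The replicate numbers are not stated to pair samples, and same-numbered samples' deviations correlated at 0.391 across genes, with only 2 pairs. With the replicate block 10 histone genes were called higher and 33 lower, against 9 and 33 as reported. With the block Hist1h1c (0.86, adjusted p = 0.02) and Hist1h2ag (-0.70, adjusted p = 0.0409) passed and Hist3h2ba (-0.70, adjusted p = 0.053) did not. No slide block could be fitted, since all arrays were on 1 slide. Dim signal limits Hist1h3a, Hist1h3f and Hist1h2ac, each not well above background on at least 1 array, and 4 genes were too dim to fit.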
